A study of Pinctada imbricata with 5 samples.

Results

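The comparison set the pearl sac library of day 20 after surgical implantation against the library of day 10. A pearl sac is epithelium of a grafted piece of mantle that closes over the nucleus and then deposits the pearl on it. These are 2 of the 5 libraries of a time course that also holds days 15, 30 and 60, with 1 library a day. Every library came from pearl sac of oysters 1.5 years old, with no genotype or further treatment given. The species is Pinctada imbricata in the sample labels and Pinctada martensii in the series title. The number of sacs or animals behind a library is not stated in the labels, so the spread between sacs is not measured and no p-value is given.

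In pearl oysters the epithelium of the mantle, and later of the pearl sac, secretes an organic matrix of proteins and chitin in which calcium carbonate crystallises. Prisms of calcite and tablets of aragonite (nacre) are built with different sets of matrix proteins, and enzymes such as tyrosinases crosslink the organic layer. Secreted protease inhibitors are known from the shell matrix of several molluscs, and blood cells (hemocytes) gather at the wound made by implantation. Digital gene expression counts short tags, each cut next to a CATG site of a messenger RNA, and assigns them to assembled transcripts called unigenes. A unigene can hold several CATG sites, numbered here from its 3′ end. Fewer cells of a type and less RNA per cell cannot be told apart in such bulk samples.

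The main tags of 7 genes of shell matrix and protease inhibition are shown first, in lower case with the CATG anchor in capitals, because the results below return to them. The first 5 were listed on day 10 and had no copy on day 20, or 3 copies in the case of Pif.
Kazal-type inhibitor, Unigene80425: CATGgacatcttcccttagag
tyrosinase-like protein 1, Unigene1470: CATGcagaggaagaaaaaaaa
nacre protein, Unigene72742: CATGcagagaaatccacgcag
mantle protein 10, Unigene59335: CATGtcagagtaatcaaacac
Pif, Unigene83722: CATGgacttcattacatcgga
The next tags were the main ones of mantle genes that were higher on day 20.
mantle gene 1, Unigene89281: CATGgggaaataaatcaacgg
mantle gene 4, Unigene29181: CATGgacggctttgactattg

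The day 20 library held 4784093 tags in all and the day 10 library 4731837. Of these, 1339346 tags on day 20 and 933782 on day 10 were listed for unigenes. On day 20 8824 unigenes were listed and on day 10 9586, and 6064 were listed in both libraries. Levels are given as tags, or as scaled TPM, which is the authors' TPM divided by a scaling factor of 0.898 for day 20 and 0.948 for day 10. A gene was compared when it reached 10 scaled TPM in at least 1 of the libraries, equal to 43.0 tags on day 20 and 44.9 on day 10. It was called higher or lower when the whole 95% interval of its ratio, day 20 over day 10, lay beyond 2-fold. Where one library listed no tag, 3 tags in that library served as a floor and the fold is written as "at least". This floor is a convention, and the 95% bound lies somewhat below it (440-fold where the floor gives 541-fold, for Unigene80425). Intervals and floors cover counting error only.

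All 4 compared members of the protease inhibitor list and 6 of 12 compared shell matrix genes were lower on day 20 than on day 10. By contrast, 3 of 4 stress chaperones, both collagens and 2 mantle genes were higher. Of the 1581 genes compared, 250 were higher on day 20 (15.8%) and 336 lower (21.3%), so that 37.1% were called in either direction. Counts of called genes in the lists below are to be read beside these shares, and no list was tested against them. The median log2 ratio over all genes compared was -0.05. Among the lower genes 97 had no tag listed on day 20 (28.9%), and among the higher genes 29 had none on day 10 (11.6%). Matches to a protein were listed for 45 higher and 67 lower genes, while 205 and 269 were without one. Genes are named below by their best match, and some matches were weak. The e-value was 1.42e-06 for the mannose receptor match and 2.08e-06 for the cAMP-responsive element binding protein match. It was 3.96e-06 for the DEAD box helicase 21 match, 5.99e-06 for venom protein M and 3.15e-07 for the galactose-binding lectin. One unigene, Unigene51171, took 60.1% of the listed tags on day 20 (exact 95% interval 60.0 to 60.2) and 43.2% on day 10 (43.1 to 43.3), and its part in the other differences was not tested.

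**Figure D1:**
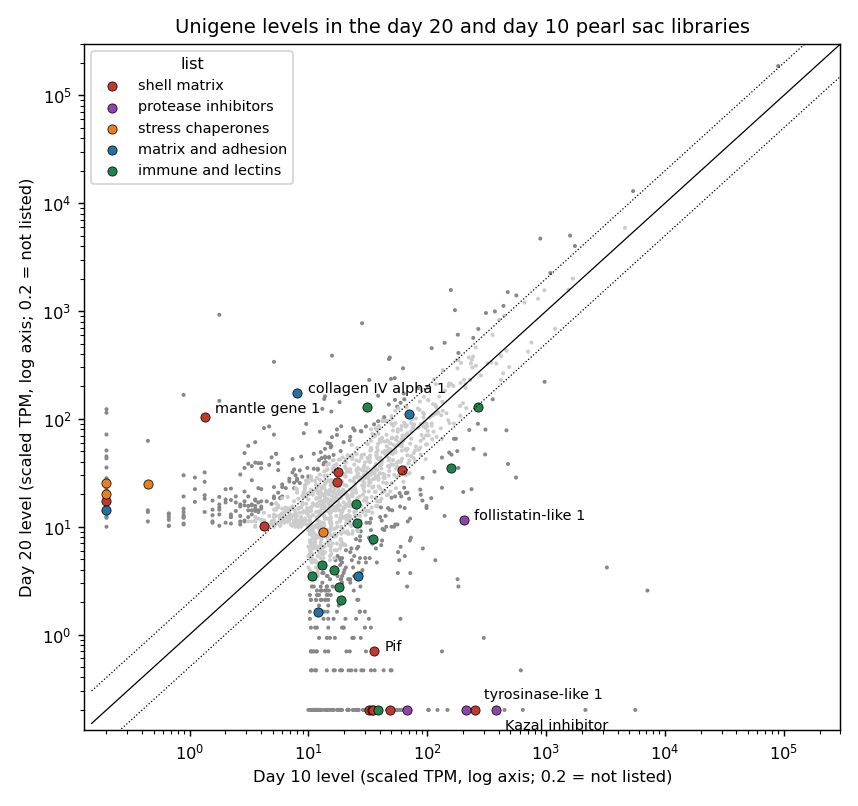
Scaled TPM of the 1581 compared unigenes on day 20 (vertical log axis) against day 10 (horizontal log axis), with genes not listed in a library drawn at 0.2. Dark grey points were called and light grey ones were not, the solid line marks equal levels, the dotted lines mark 2-fold, and colours mark 5 groups of lists. Of the protease inhibitor list 3 of 4 genes lie at the lower edge with several shell matrix genes, while 3 of 4 stress chaperones lie at the left.

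The nacre matrix list held 5 compared genes, of which 3 were lower on day 20 and 0 higher. Unigene72742, matched to a nacre protein of Pinctada fucata, had 0 tags on day 20 and 219 on day 10, at least 69.9-fold lower. Unigene30025, with the same match, had 0 and 145 tags on days 20 and 10, at least 46.3-fold lower. The Pif match (Unigene83722, e-value 3.02e-08) is to a matrix protein known from Pinctada fucata to bind aragonite. This unigene had 3 tags on day 20 and 160 on day 10, 51.1-fold lower (95% interval 17.2 to 250). These 3 genes were thus at or next to the limit of detection on day 20.

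The other 2 nacre members were not called. Nacre protein Unigene14842 had 111 tags on day 20 and 78 on day 10, a ratio of 1.49 (1.10 to 2.01). The N151 match (Unigene24054) had 44 and 19 tags on days 20 and 10, a ratio of 2.42 (1.38 to 4.39). Matches to nacre proteins therefore did not all move one way between these libraries. The list's median log2 ratio was -4.43, or -5.53 with unlisted genes set at the floor, against -0.05 for all genes compared. Over the 10 members at 1 scaled TPM or more it was -1.37, against -0.10 for the 6664 genes at that level. At any level, 6 of its 15 members were listed on day 20 and 14 on day 10.

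Tyrosinase-like protein 1 (Unigene1470), of the enzyme family that oxidises tyrosine and hardens the organic layer of shell, was the single compared member of the prism and tyrosinase list. It had 0 tags on day 20 and 1127 on day 10, at least 360-fold lower. Its main tag, shown above, lies at the second CATG site from the 3′ end and had 1078 copies on day 10. This tag ends in a run of 8 A bases, and whether it belongs to this gene alone was not tested. The 3′-most site alone had 10 copies on day 10, under the minimum level for a call. No member of the list was listed on day 20, and 3 were listed on day 10.

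The mantle genes, named for the tissue they were first found in and without a role given here, divided evenly, with 2 of 6 higher on day 20 and 2 lower. Mantle gene 1 (Unigene89281) had 450 tags on day 20 and 6 on day 10, 78.3-fold higher (35.7 to 215). On day 20 its tags came from all 3 of its CATG sites, while on day 10 only the third site was listed.
mantle gene 1, site 3, 399 tags on day 20 and 6 on day 10: CATGgggaaataaatcaacgg
mantle gene 1, site 2, 28 tags on day 20 and 0 on day 10: CATGtttttgatatcttattc
mantle gene 1, site 1, 21 tags on day 20 and 0 on day 10: CATGtgtaaccaatccgtcaa
Tags of the 3′-most site alone numbered 23 on day 20 and 0 on day 10, under the minimum level for a call.

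Unigenes matched to mantle gene 4 differed among themselves. Unigene29181 had 75 tags on day 20 and 0 on day 10, at least 26.1-fold higher, and it was listed on no other day. Unigene75755 had 139 and 79 tags on days 20 and 10 (ratio 1.84, 1.38 to 2.45), and Unigene59776 had 143 and 277 (ratio 0.539, 0.438 to 0.662), neither of them called. Their tags, below, are distinct, and whether these unigenes are copies, alleles or fragments of one gene was not tested.
mantle gene 4, Unigene29181: CATGgacggctttgactattg
mantle gene 4, Unigene75755: CATGttgtatatataaatggt
mantle gene 4, Unigene59776: CATGgactgctttaacccagg

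Mantle gene 5 (Unigene39109) and mantle protein 10 (Unigene59335) were the lower members. Mantle gene 5 had 0 tags on day 20 and 153 on day 10, at least 48.8-fold lower, with the day 10 tags spread over 3 sites. Mantle protein 10 had 0 and 157 tags on days 20 and 10, at least 50.1-fold lower, from 1 tag. The list's median log2 ratio was -0.01, beside -0.05 for all genes compared, and -0.41 over 10 members at 1 scaled TPM or more. Over all 17 compared unigenes whose match came from a Pinctada species, shell genes and others together, 3 were higher on day 20 and 8 lower, 7 of the 8 with no tag on day 20.

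**Figure D2:**
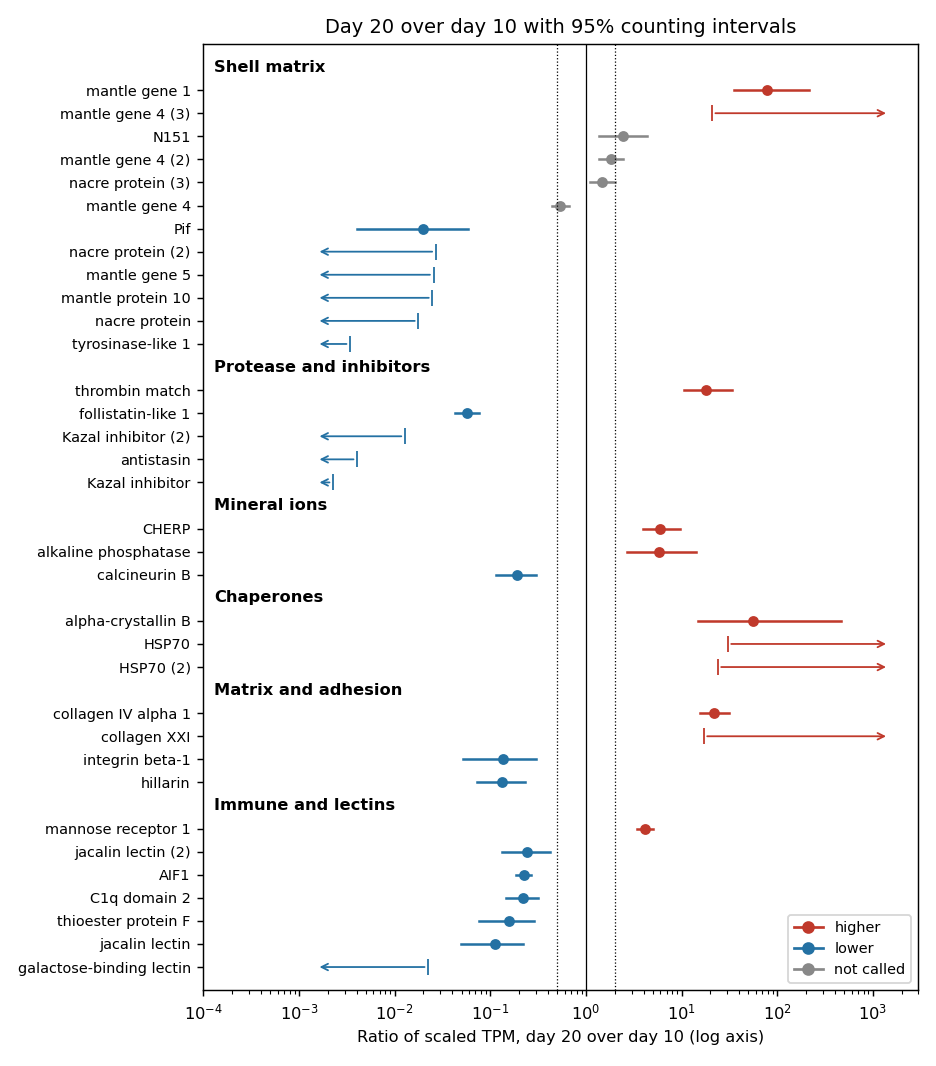
Ratio of scaled TPM, day 20 over day 10, on a log axis for 34 genes of 6 groups, with bars for the 95% counting interval. A vertical tick with an arrow is the interval bound nearest to 1 of a gene with no tag in one library, and dotted lines mark 2-fold. Outside the shell matrix group only called genes are drawn, so that HSP10, compared and not called, is left out. Shell matrix genes lie on both sides of 1. All 4 genes of the protease inhibitor list lie to the left and the 3 called chaperones to the right.

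All 4 compared genes of the protease inhibitor list were lower on day 20. The Kazal-type inhibitor Unigene80425, of a family of small secreted proteins that block serine proteases, had 0 tags on day 20 and 1697 on day 10, at least 541-fold lower. A second Kazal match (Unigene71003) had 0 and 304 tags on days 20 and 10, at least 97.0-fold lower, all from its second CATG site. Unigene58429, matched to antistasin, an inhibitor of clotting proteases known from leech, had 0 tags on day 20 and 954 on day 10, at least 304-fold lower. These 3 unigenes were thus listed on day 10 and not listed on day 20.

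Follistatin-like 1 (Unigene53180), a secreted glycoprotein with a Kazal-like domain that binds growth factors in vertebrates, had 50 tags on day 20 and 905 on day 10, 17.3-fold lower (13.0 to 23.5). Whether it inhibits proteases was not tested. Summed over the list, with follistatin-like 1 included, members had 87 tags on day 20 and 3930 on day 10. On day 20, 4 members were listed, against 13 on day 10. The median log2 ratio of the 4 compared members was -6.92, or -7.42 with unlisted genes at the floor, and that of the 11 members at 1 scaled TPM or more was -1.88. The single compared member of the protease list was higher on day 20. It was matched to thrombin (Unigene83879), a serine protease of blood clotting in vertebrates. This unigene had 242 tags on day 20 and 14 on day 10, 18.1-fold higher (10.6 to 33.5). Unigene18071, outside the list and matched without a protein name, carries the gene ontology term serine-type peptidase activity. It was lower, with 9 tags on day 20 and 57 on day 10, 6.06-fold (2.98 to 13.9).

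In the list of calcium and phosphate handling, 2 of 4 genes were higher on day 20 and 1 lower. The calcium homeostasis endoplasmic reticulum protein match (Unigene68223), which in mammals regulates calcium release and binds RNA, had 144 tags on day 20 and 25 on day 10, 6.02-fold higher (3.92 to 9.61). Alkaline phosphatase (Unigene7396), which frees phosphate and is widely taken as a sign of mineralisation, had 44 and 8 tags on days 20 and 10, 5.75-fold higher (2.68 to 14.1). With libraries scaled by total tags it fell under the minimum level. The tag that carried the day 20 count was not among those of day 10, and the unigene was listed on no other day.
alkaline phosphatase, 44 tags on day 20 and 0 on day 10: CATGgattctgatgaaatgga
alkaline phosphatase, 0 tags on day 20 and 4 on day 10: CATGgattctgttgaaatgga
alkaline phosphatase, 0 tags on day 20 and 4 on day 10: CATGgattttgttgaaatgga

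Calcineurin B (Unigene90071), through which calcium switches on the phosphatase calcineurin, had 22 tags on day 20 and 122 on day 10, 5.31-fold lower (3.35 to 8.78). Of its 122 copies on day 10, 120 came from 2 tags at the 3′-most site, of which 1 was not listed on day 20.
calcineurin B, 22 tags on day 20 and 70 on day 10: CATGacatttttaaaatttca
calcineurin B, 0 tags on day 20 and 50 on day 10: CATGacattttaaaaatttca
The neuronal calcium sensor match (Unigene13560), a calcium-binding protein of nerve cells, had 49 and 16 tags on days 20 and 10 and a ratio of 3.20 (1.79 to 6.03), which was not called. The median log2 ratio of the 4 genes was 1.73, and that of the 9 members at 1 scaled TPM or more was -0.01.

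Stress chaperones were higher on day 20 in 3 of 4 cases. Unigene65737, matched to a heat shock protein of the 70 kDa family, which folds new and damaged proteins, had 109 tags on day 20 and 0 on day 10, at least 38.0-fold higher. A second match to this family, Unigene11712, had 86 and 0 tags on days 20 and 10, at least 29.9-fold higher, and no tag on any other day. Alpha-crystallin B (Unigene85224), which holds unfolded proteins in solution, had 106 tags on day 20 and 2 on day 10, 55.4-fold higher (15.0 to 463). At its 3′-most site it had 35 and 0 tags, and from that site alone it was not called.

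The mitochondrial co-chaperone HSP10 (Unigene20937) had 38 tags on day 20 and 60 on day 10, a ratio of 0.662 (0.429 to 1.01) that was not called. The median log2 ratio of the chaperone list was 4.27, or 5.06 with unlisted genes at the floor, and 1.19 over 12 members at 1 scaled TPM or more. At any level, 24 chaperone matches were listed on day 20 and 14 on day 10. A gene outside the list whose match had no protein name but whose gene ontology (GO) terms were unfolded protein binding and response to heat, Unigene92690, had 53 tags on day 20 and 0 on day 10, at least 18.5-fold higher. It was picked for its terms after its values were seen.

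Redox genes showed no common direction, with 1 of 6 higher and 1 lower. Dual oxidase 1 (Unigene52584), a membrane enzyme that produces hydrogen peroxide, had 109 tags on day 20 and 38 on day 10, 3.00-fold higher (2.05 to 4.46). The cytochrome P450 CYP356A1 (Unigene86703), of the family that oxidises foreign compounds, had 5 and 53 tags on days 20 and 10, 10.1-fold lower (4.09 to 32.5). Unigene39645, a match without a protein name that carries the GO term peroxidase activity, had 0 tags on day 20 and 215 on day 10, at least 68.6-fold lower. Dual oxidase 1 was not called when libraries were scaled by total tags.

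In the list of matrix and adhesion, 2 of 5 genes were higher on day 20, both collagens, and 2 were lower, integrin beta-1 and hillarin. Collagen IV alpha 1 (Unigene90525), which forms the network of basement membranes, had 753 tags on day 20 and 36 on day 10, 21.9-fold higher (15.6 to 31.4). Only 2 of its day 20 tags lay at the 3′-most CATG site, so it was not called from that site alone. The collagen XXI match (Unigene1683), of a class that decorates collagen fibrils, had 62 and 0 tags on days 20 and 10, at least 21.6-fold higher.

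Integrin beta-1 (Unigene20091), a receptor through which cells hold on to matrix, had 7 tags on day 20 and 54 on day 10, 7.38-fold lower (3.35 to 19.2). Hillarin (Unigene86118), a protein named from the medicinal leech, had 15 and 117 tags on days 20 and 10, 7.47-fold lower (4.35 to 13.8). The fifth member, an SCO-spondin-like match (Unigene92465) to a large secreted glycoprotein, had 473 and 316 tags and a ratio of 1.56 (1.35 to 1.81), not called. Summed over the list, matrix and adhesion genes had 1435 tags on day 20 and 599 on day 10, and the median log2 ratio of the 5 compared was 0.64.

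Among 9 genes of actin and cell shape, 2 were higher on day 20 and 1 lower. An actin (Unigene60443), the subunit of cell filaments, had 5999 tags on day 20 and 2521 on day 10, 2.49-fold higher (2.37 to 2.61). A MICAL-like protein 2 match (Unigene21379), which in mammals links vesicle traffic to actin at cell junctions, had 74 and 20 tags on days 20 and 10, 3.87-fold higher (2.33 to 6.69). Non-muscle actin (Unigene21986) went the other way, with 337 tags on day 20 and 2083 on day 10, 5.92-fold lower (5.27 to 6.66). Actins are near-identical copies of one another, and how the authors divided their tags could shift these values.

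Immune recognition genes were lower on day 20 in 3 of 8 cases and higher in 1. Allograft inflammatory factor 1 (Unigene89534), a calcium-binding protein of macrophages and blood cells, had 152 tags on day 20 and 713 on day 10, 4.49-fold lower (3.76 to 5.39). A complement relative, thioester-containing protein F (Unigene38628), had 12 and 81 tags on days 20 and 10, 6.46-fold lower (3.50 to 13.0). The C1q domain-containing protein 2 (Unigene86498), of a family that binds microbial surfaces, had 33 and 158 tags, 4.58-fold lower (3.13 to 6.89). Only the mannose receptor C type 1-like match (Unigene91660), a receptor for sugars of microbes, was higher, with 552 tags on day 20 and 140 on day 10, 4.12-fold (3.42 to 4.99).

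The other 4 immune members were not called and had ratios below 1. The Toll-9 receptor matches Unigene17023 and Unigene50063, of a family that senses microbes, had ratios of 0.326 (0.170 to 0.593) and 0.336 (0.189 to 0.572). The list's median log2 ratio was -1.38, and -1.27 over 14 members at 1 scaled TPM or more. Allograft inflammatory factor 1 is also a hemocyte marker, and the other 6 hemocyte markers summed to 14 tags on day 20 and 7 on day 10.

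In the list of lectins, proteins that bind sugars, 3 of 4 genes were lower and 0 higher. The mannose receptor match above (Unigene91660), also a receptor for sugars, was higher on day 20 but was counted in the immune list. The galactose-binding lectin Unigene75519 had 0 tags on day 20 and 174 on day 10, at least 55.5-fold lower, and was listed on day 10 alone of the 5 days. Jacalin-related lectin Unigene2003 had 9 and 85 tags on days 20 and 10, 9.04-fold lower (4.54 to 20.4), and Unigene62299 had 17 and 73, 4.11-fold lower (2.40 to 7.44). Galectin (Unigene82154) had 556 tags on day 20 and 1206 on day 10, a ratio of 0.482 (0.435 to 0.533), and was not called because the interval spans 2-fold. The median log2 ratio of the lectins was -2.24, or -2.61 with the unlisted gene at the floor, and -0.69 over 10 members at 1 scaled TPM or more.

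**Figure D3:**
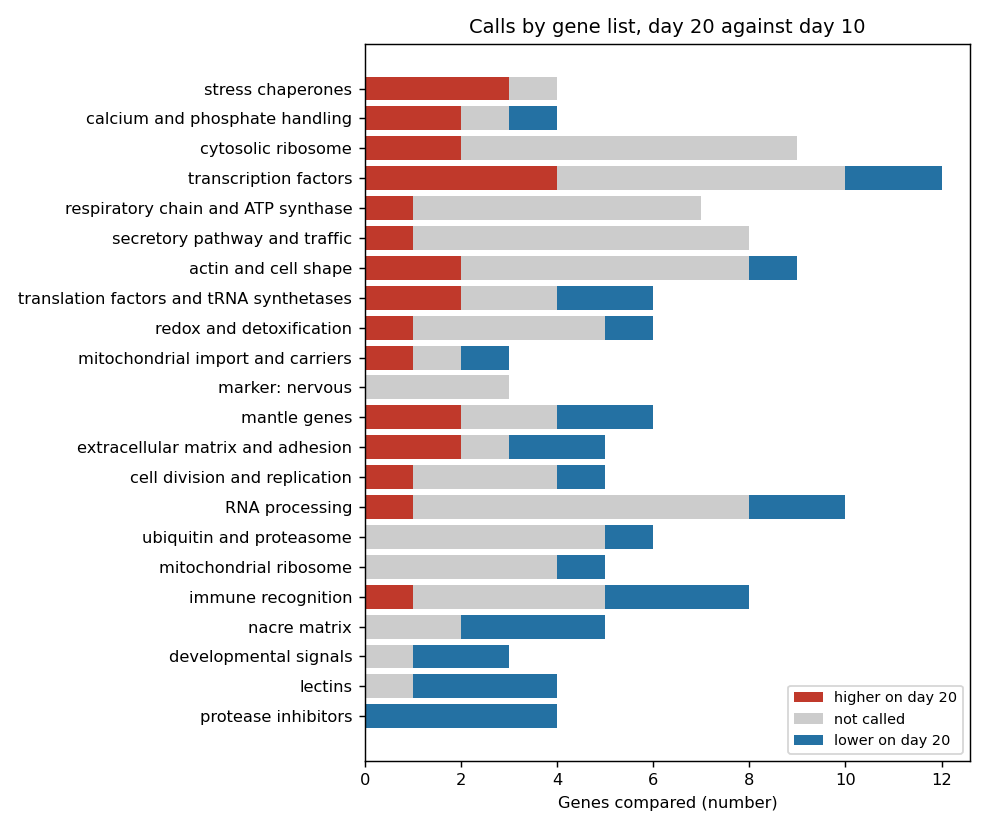
Number of compared genes in each list of 3 or more that were higher on day 20 (red), not called (grey) and lower on day 20 (blue). All 4 genes of the protease inhibitor list were lower and 3 of 4 stress chaperones were higher, and most lists held genes of both kinds or few calls.

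In the list of developmental signals, 2 of 3 compared genes were lower on day 20, 0 were higher and 1 was not called. Their median log2 ratio was -2.01, and -1.21 over 7 members at 1 scaled TPM or more. Summed over the list there were 372 tags on day 20 and 750 on day 10. The MEGF7-like match (Unigene89191), related to the low density lipoprotein receptors, had 0 tags on day 20 and 134 on day 10, at least 42.8-fold lower, and was listed on no other day. The lipoprotein receptor-related protein 6 match (Unigene92669), a co-receptor for Wnt ligands, had 12 and 64 tags on days 20 and 10, 5.11-fold lower (2.73 to 10.4).

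Transcription factors were higher in 4 of 12 cases and lower in 2, and the higher ones included abundant genes. A Kruppel-like factor (Unigene92331), of a zinc finger family active in epithelia, had 2183 tags on day 20 and 627 on day 10, 3.64-fold higher (3.33 to 3.98). The cAMP-responsive element binding protein match (Unigene47491) had 4123 and 1398 tags on days 20 and 10, 3.08-fold higher (2.90 to 3.28). A match to an NFX1-like factor (Unigene54522) had 659 and 61 tags, 11.3-fold higher (8.67 to 14.9). The fourth was a mab-21-like 2 match (Unigene89866), a developmental regulator, with 89 tags on day 20 and 25 on day 10, 3.72-fold higher (2.36 to 6.05).

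The lower factors were not listed on day 20 at all. A protein with NAC and TS-N domains (Unigene71884) had 0 tags on day 20 and 167 on day 10, at least 53.3-fold lower. It was listed because its match is named a transcription factor, and whether it acts as one was not tested. The factor Tal (Unigene91923), which in vertebrates directs the formation of blood cells, had 0 and 98 tags on days 20 and 10, at least 31.3-fold lower. Summed over the list, transcription factors had 7622 tags on day 20 and 3260 on day 10, while the median log2 ratio of the 12 was -0.51, and -0.30 over 24 members at 1 scaled TPM or more. The sum was thus higher on day 20 while the median was below 0.

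Of 9 cytosolic ribosomal proteins 2 were called higher and 0 lower. Their median log2 ratio was 0.77, or 0.54 over 15 members at 1 scaled TPM or more. Ribosomal protein L22e (Unigene79656), of the large subunit, had 1658 tags on day 20 and 71 on day 10, 24.4-fold higher (19.2 to 31.4). Ribosomal protein S10 (Unigene86218), of the small subunit, had 4799 and 1967 tags on days 20 and 10, 2.55-fold higher (2.42 to 2.69). Against these, ribosomal protein L23a (Unigene61228) had 2946 tags on day 20 and 5346 on day 10, a ratio of 0.576 (0.550 to 0.602) that was not called.

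Translation factors and tRNA synthetases were 2 higher and 2 lower of 6. Subunit F of initiation factor 3 (Unigene80803), which helps to load the ribosome, had 336 tags on day 20 and 110 on day 10, 3.19-fold higher (2.57 to 3.99). Another subunit of the same factor (Unigene90069) had 51 and 322 tags on days 20 and 10, 6.04-fold lower (4.49 to 8.29). Synthetases, enzymes that load amino acids onto tRNA, also parted. The tryptophanyl one (Unigene92685) had 53 and 10 tags, 5.54-fold higher (2.79 to 12.2), and the valyl one (Unigene77381) had 2 and 98, 46.9-fold lower (12.6 to 393).

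In RNA processing 1 of 10 genes was higher and 2 lower, shares near those of all genes compared. Their median log2 ratio was -0.86, while 26 members at 1 scaled TPM or more had one of 0.15. The DEAD box helicase 21 match (Unigene87030), which acts in ribosome assembly in vertebrates, had 2934 tags on day 20 and 1207 on day 10, 2.54-fold higher (2.37 to 2.72). Splicing factor 3 subunit 1 (Unigene88330), part of the spliceosome, had 61 and 228 tags on days 20 and 10, 3.58-fold lower (2.69 to 4.83). The U2AF large subunit match (Unigene85712), which marks the 3′ splice site, had 20 and 137 tags, 6.56-fold lower (4.08 to 11.1). Its 3′-most site alone had 18 tags on day 20 and 12 on day 10, so the direction of this gene rests on its other sites.

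Of mitochondrial genes, 1 of 5 ribosomal proteins, 1 of 7 respiratory chain and ATP synthase genes and 2 of 3 import and carrier genes were called. Mitochondrial ribosomal protein S35 (Unigene91816) had 27 tags on day 20 and 115 on day 10, 4.08-fold lower (2.66 to 6.45). Cytochrome c oxidase subunit IV (Unigene85613), of the last complex of the respiratory chain, had 583 and 213 tags on days 20 and 10, 2.86-fold higher (2.44 to 3.36). The other 6 of 7 respiratory chain and ATP synthase genes had ratios between 0.609 (ATP synthase beta, Unigene59783) and 1.34 (ATP synthase delta, Unigene34477), and the list's median log2 ratio was 0.01. The import translocase TIM44 match (Unigene82768) had 0 tags on day 20 and 216 on day 10, at least 68.9-fold lower, and the phosphate carrier (Unigene51813) had 409 and 173 tags, 2.47-fold higher (2.06 to 2.97), which was not called when scaled by total tags.

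Cell division genes were 1 higher and 1 lower of 5. Geminin (Unigene4604), a brake on repeated DNA replication, had 204 tags on day 20 and 50 on day 10, 4.26-fold higher (3.11 to 5.93). RuvB-like 2 (Unigene88302), a helicase of chromatin complexes, had 30 and 155 tags on days 20 and 10, 4.95-fold lower (3.33 to 7.58). A match without a protein name whose GO term is ribonucleoside-diphosphate reductase activity, Unigene74317, had 43 and 203 tags, 4.52-fold lower (3.24 to 6.44). The proteasome subunit beta type 2 (Unigene88506) was the single call of 6 in protein turnover, with 3 tags on day 20 and 62 on day 10, 19.8-fold lower (6.46 to 98.5).

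In the secretory pathway 1 of 8 genes was called, the very abundant Unigene51171, whose weak match (e-value 2.44e-07) is to vacuolar protein sorting 13D of chicken. It had 805003 tags on day 20 and 403032 on day 10, 2.09-fold higher (2.08 to 2.09), and scaled by total tags it was not called. All of its tags came from the second CATG site, mainly from the tag below. The other 7 members were not called, among them Sec61 alpha (Unigene84036), the channel for secreted proteins, with 77 tags on day 20 and 73 on day 10. All 8 together had a median log2 ratio of 0.10.
vacuolar protein sorting 13D match, Unigene51171: CATGgttaatcaaagggaaga

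Lists with at most 1 compared gene gave no further call. Of chitin and glycan genes, 14 were listed on day 20 and 10 on day 10, with 119 and 120 tags in sum. Channels, pumps and carriers had 265 tags on day 20 and 197 on day 10 over 25 and 23 listed genes, and cell death genes had 212 and 329 tags. In each of these 3 lists 1 gene reached the minimum level and was not called.

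By GO term, the 152 compared genes that carry one were called higher in 23 cases and lower in 28, with a median log2 ratio of -0.12. Protein binding, the largest term, held 40 compared genes, of which 4 were higher and 8 lower (median -0.19, and 0.06 over 153 genes at 1 scaled TPM or more). Genes of the cytosol term were lower in 5 of 10 cases and higher in 1, with a median of -1.51, beside 21.3% lower of all genes compared. Over the 46 cytosol genes at 1 scaled TPM or more the median was -0.09, so the lower median was seen in the 10 genes at the minimum level. Those 5 were proteasome beta 2, the lower initiation factor 3 subunit, calcineurin B, Unigene74317 and Unigene85472, which carries a term for spliceosomal snRNP biogenesis and had 3 tags on day 20 and 47 on day 10. Nucleus (3 higher and 5 lower of 23), cytoplasm (4 and 3 of 20), ATP binding (3 and 4 of 14), membrane (2 and 2 of 10) and RNA binding (2 and 2 of 10) had medians between -0.80 and 0.13, and between -0.73 and 0.15 at 1 scaled TPM or more.

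Named genes outside these lists included a protein lethal match (Unigene78219), without a known role here, with 269 tags on day 20 and 2 on day 10, 141-fold higher (38.5 to 1166). Adenosine deaminase (Unigene89607), an enzyme of purine breakdown, had 91 and 13 tags on days 20 and 10, 7.31-fold higher (4.07 to 14.3). An ADP-ribosylating protein match to CARP-1 of a clam (Unigene88974) had 0 tags on day 20 and 271 on day 10, at least 86.5-fold lower. The match to venom protein M of a wasp (Unigene83268) had 0 and 176 tags, at least 56.2-fold lower.

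The greatest differences lay in unigenes without a protein match. Unigene6737 had 0 tags on day 20 and 25253 on day 10, at least 8058-fold lower, and Unigene46630 had 0 and 9614, at least 3068-fold lower. Higher on day 20 were Unigene78168, with 3970 and 8 tags, 518-fold (263 to 1202), and Unigene62529, with 529 and 0, at least 184-fold. Genes without a match made up 82.0% of the higher, 80.1% of the lower and 81.8% of all compared genes, so the calls held about the same share of them as the background.

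Among markers of other cell types, allograft inflammatory factor 1 was the single gene called. No muscle gene reached the minimum level, and the muscle markers summed to 56 tags on day 20 and 22 on day 10. Sperm and motile cilia markers summed to 28 tags in both libraries, and egg and germline markers were listed in neither. Of the digestive gland markers, a pancreatic lipase-related protein (Unigene92137) had 71 and 101 tags on days 20 and 10, a ratio of 0.734 (0.534 to 1.00). The 3 compared members of the nervous list were not called. They were the calcium sensor above, a neurogenic differentiation factor (Unigene89880, 83 and 103 tags) and synaptojanin 2 binding protein (Unigene87502, 95 and 88 tags). Members were picked by words in the name of the match, and whether each marks nerve cells was not tested. Genes of the mitochondrial genome and ribosomal RNA matched no unigene, so that RNA quality was not checked. Matches to mantle and nacre proteins were listed in both libraries, which cannot tell pearl sac from other mantle epithelium. Of the nacre list 6 members were listed on day 20 and 14 on day 10, and of the prism and tyrosinase list 0 and 3.

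In the libraries of the other days, the genes that were lower on day 20 had their second highest median on day 30. In order of day (10, 15, 20, 30 and 60) their median levels were 25.7, 5.14, 1.98, 12.8 and 6.72 scaled TPM. Of the 97 that had no tag on day 20, 40, 80 and 37 were listed on days 15, 30 and 60 (41.2%, 82.5% and 38.1%). Of all genes compared, 90.8%, 95.3% and 90.4% were listed on these days. The Kazal inhibitor Unigene80425 had 1697, 0, 0, 563 and 2 tags in order of day, and tyrosinase-like protein 1 (Unigene1470) had 1127, 0, 0, 2622 and 0. Pif (Unigene83722) did not follow them, with 160, 5, 3, 7 and 3.

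The genes higher on day 20 had median levels of 4.01, 4.33, 29.2, 6.99 and 4.97 scaled TPM in order of day, beside 17.8, 11.9, 16.1, 14.9 and 14.0 for all genes compared. Since these genes were chosen by their day 20 and day 10 levels, those days' medians describe the choice. Of the 29 that had no tag on day 10, 16, 16 and 12 were listed on days 15, 30 and 60. Collagen IV alpha 1 (Unigene90525) had 36, 64, 753, 45 and 28 tags in order of day, and mantle gene 1 (Unigene89281) had 6, 47, 450, 2 and 23. Ribosomal protein L22e (Unigene79656) differed from them, with 71, 52, 1658, 1540 and 10 tags, and geminin (Unigene4604) was highest on day 60, with 50, 221, 204, 119 and 1194.

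**Figure D4:**
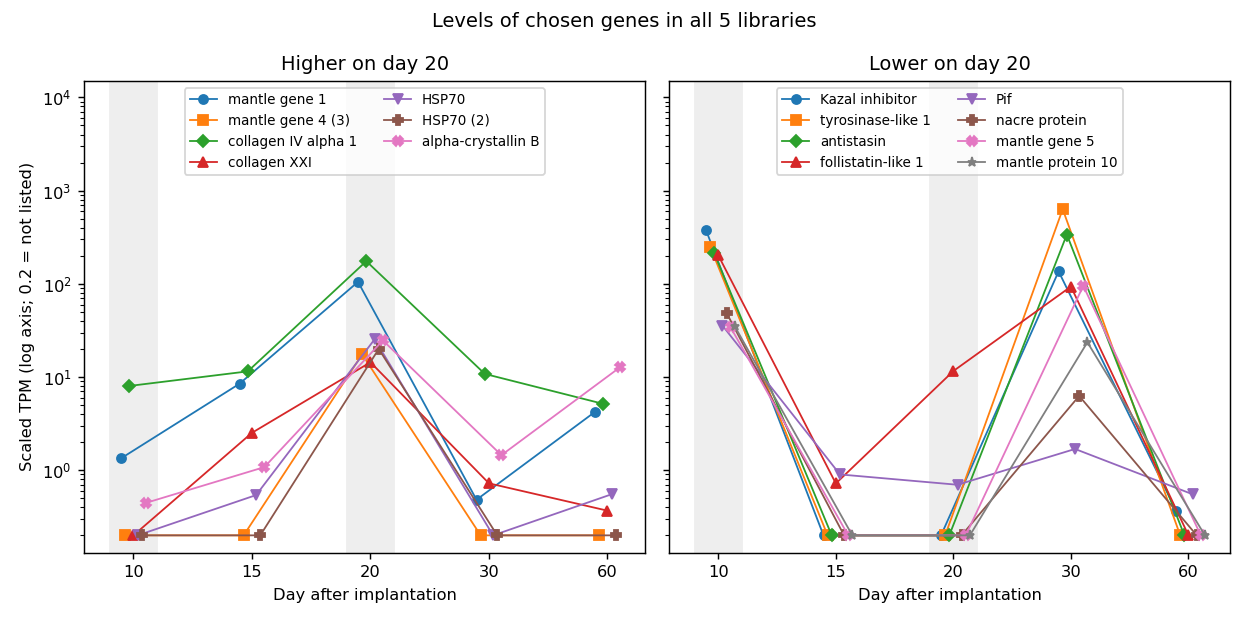
Scaled TPM (log axis, 0.2 for a gene not listed) of 7 genes higher on day 20 and 8 genes lower on day 20 in the libraries of days 10, 15, 20, 30 and 60, drawn at equal steps with points set slightly apart sideways. Grey bands mark days 10 and 20, and lines only join the points of a gene. Collagen IV alpha 1 reaches its top on day 20, and tyrosinase-like protein 1 is listed on days 10 and 30 alone.

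The libraries also differed in which tags of a gene they held. In 397 of the compared genes (25.1%), at least 2 tags at the same CATG site differed by 1 base, each with 10 tags or more in one of the libraries, which made 761 pairs. In 179 pairs, from 143 genes, 1 tag was the more frequent on day 20 and the other on day 10, with 10 tags of the pair or more in each library. The exact 95% intervals of the shares in the 2 libraries were apart in 145 of these pairs, and lay on opposite sides of 50% in 84. A run of 8 or more A bases was found in 33 of the 179 pairs and 19 of the 145, and several pairs can come from 1 unigene. Of the 143 genes 22 had a protein match. In the galectin pair the capital marks the base that differs, C11T, with positions counted from 1 at the 5′ end of the tag.
galectin, Unigene82154, first tag: catggggagaCgaggaaagag
galectin, Unigene82154, second tag: catggggagaTgaggaaagag

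The first galectin tag had 554 copies on day 20 and 580 on day 10, while the second had 2 on day 20 and 614 on day 10. Nearly the whole difference in the gene's total thus lay in 1 of the 2 tags. As a share of the pair, the first tag was 99.6% on day 20 (exact 95% interval 98.7 to 100) and 48.6% on day 10 (45.7 to 51.5). On the other days it had 942, 561 and 680 copies on days 15, 30 and 60, and the second tag 0, 10 and 0.

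Signal sequence receptor beta (Unigene66740), of the channel for secreted proteins, had a ratio of 0.777 (0.689 to 0.875) in total and was not called, but its tags changed places. The first tag of its C17T pair was 12.6% of the pair on day 20 (9.76 to 15.9) and 79.2% on day 10 (75.9 to 82.3).
signal sequence receptor beta, first tag, 61 tags on day 20 and 515 on day 10: catgacactaccatctCtgtg
signal sequence receptor beta, second tag, 424 tags on day 20 and 135 on day 10: catgacactaccatctTtgtg
Proteasome subunit alpha 5 (Unigene90760), with 223 tags on day 20 and 241 on day 10, had a second tag that day 20 lacked (A14G pair, 100% and 41.4% for the first tag).
proteasome subunit alpha 5, first tag, 221 tags on day 20 and 99 on day 10: catgcaaataaatAaggaaaa
proteasome subunit alpha 5, second tag, 0 tags on day 20 and 140 on day 10: catgcaaataaatGaggaaaa

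Adenosine deaminase (Unigene89607), called higher above, had 91 copies of the first tag of its A11G pair on day 20 and 0 of the second, against 0 and 11 on day 10.
adenosine deaminase, first tag: catggttatgAatatggggat
adenosine deaminase, second tag: catggttatgGatatggggat
On the other days the first tag had 0, 83 and 0 copies and the second 0, 0 and 112, on days 15, 30 and 60. For a gene like this the ratio compares different tags. Whether such tags are alleles of different animals, copies of a gene or sequencing errors was not tested, and the labels do not tell how many animals a library holds.

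**Figure D5:**
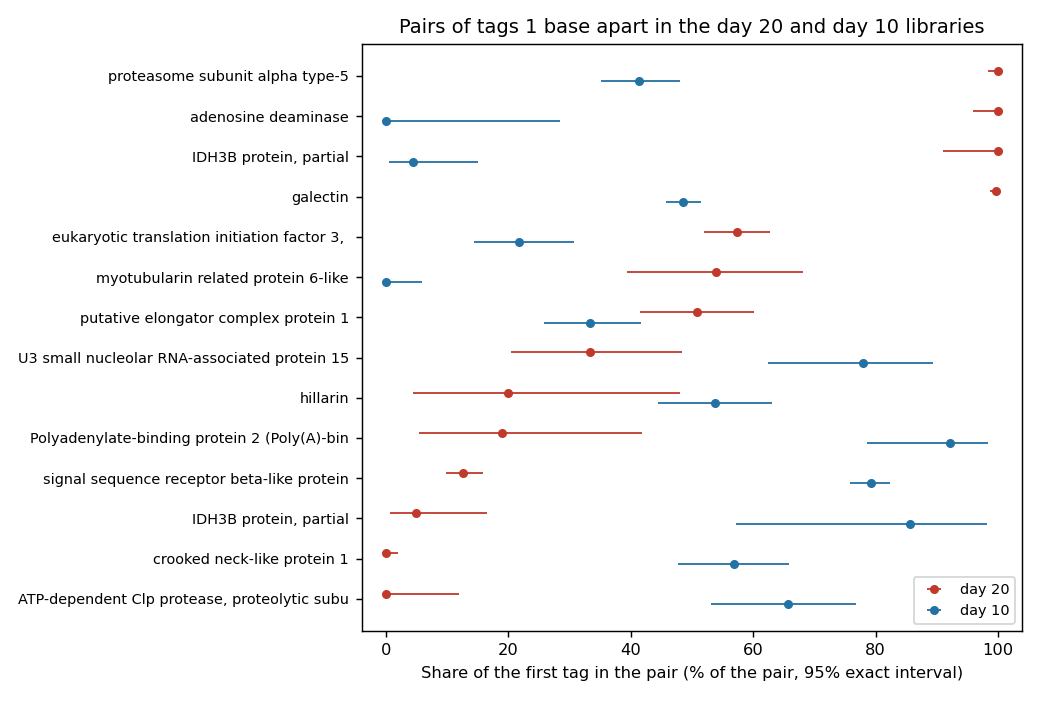
Share of the first tag among both tags of a pair that differ by 1 base, on day 20 (red, upper) and day 10 (blue, lower), for the 14 pairs in genes matched to a named protein whose more frequent tag differed between the libraries. Bars are exact 95% binomial intervals, which overlap between the days for hillarin and for elongator complex protein 1. Pairs were chosen for this difference, and the shares run from 0% to 100%, with galectin at 99.6% on day 20 and 48.6% on day 10.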

How the data were processed

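Tag profiles of 1 library a day were used as the authors deposited them. Per the file headers, each table gives a count per unigene, a TPM value, the best protein match, GO terms and every tag with its copy number. The deposited count is the sum of tag copies and was not normalized, and the TPM of the authors is that count over the library's total, with no correction for length. The smallest listed tag copy number was 2, so an unlisted gene may have been seen once. Per the labels' protocols, RNA was extracted with Trizol and a TruSeq kit was used, although all tags are 21 bases long and begin with CATG. Aligner, mismatch limit and assembly build were not given in the sources used here. Unigenes were not placed on a genome.

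Library totals were recovered as count over TPM from genes of at least 5000 tags. Scaling factors came from TMM in edgeR 4.0.16 (R 4.3.3) over all 5 libraries. Ratio intervals were Clopper-Pearson intervals at 95%, conditional on the counts of a gene in both libraries, computed with scipy 1.17.1 in Python 3.11.15 (numpy 2.4.6, pandas 2.3.3, matplotlib 3.10.9) and tested on simulated data. Medians use log2 of scaled TPM plus 1. With 1 library a day there was no test. The 26 gene lists and 7 marker lists are patterns over the protein match, and members and lists were chosen with earlier results of these data known. Named genes were the 15 most extreme per direction with a named protein (by the interval bound nearest to 1), every called list member, 2 unmatched unigenes per direction, and members of the nacre, prism, mantle and marker lists at the minimum level. Uncalled members of other lists, genes picked by GO term and tag pairs were chosen after their values were seen. Alternatives covered scaling, the minimum level, the interval, the fold and the CATG sites counted.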

Additional observations from a re-analysis of the deposited data

How the results depend on the processing

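The counts of 250 higher and 336 lower genes stayed within 1.5 times under another scaling (215 to 268 higher and 315 to 333 lower), a minimum of 5 scaled TPM (347 and 488), a 99% interval (215 and 316) and the 3′-most site alone (206 and 294). They became 158 higher and 204 lower with a minimum of 20 scaled TPM, 542 and 771 with no minimum, and 115 and 206 with 4-fold in place of 2-fold, as the construction of these settings implies. Of the 68 named genes called, 64 kept the call when scaled by total tags, which moved all log2 ratios by -0.08, and 41 did at 4-fold. From the 3′-most site alone 6 had no tag (Unigene71003, Unigene88330, Unigene51171, Unigene60443, Unigene86218 and Unigene54522), 57 of the other 62 kept the call, Unigene1470, Unigene85224, Unigene90525 and Unigene89281 lost it, and the U2AF match Unigene85712 turned to a log2 ratio of 0.50. The cause of that turn was not tested. No paired analysis was possible because each day has 1 library. Counting intervals leave out the spread between sacs, animals and library preparations. Genes under the minimum level in both libraries (43.0 tags on day 20 and 44.9 on day 10) were not compared.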
